A study of Mus musculus with 6 samples.

Results

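Described here are 40 nucleolar and ribosome biogenesis genes chosen by symbol, from the polymerase to late maturation factors, out of 56884 genes in the count table. All 40 matched a row by Ensembl gene ID, and all 40 passed the low-count filter, so none was lost. Ribosomes are built in the nucleolus. RNA polymerase I transcribes the ribosomal RNA precursor, small nucleolar ribonucleoproteins (snoRNPs) modify it, and assembly factors cut and fold it into the small and the large subunit. The proteins of this pathway are made in larger amounts in growing and dividing cells, and many of their genes are known targets of the transcription factor MYC.

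RNA was sequenced from whole spleens of 3 mice at passage 1 (P1) of an adoptive transfer, numbered 3, 4 and 5. The transferred cells came from Eµ-SOX11CCND1 mice, a model of mantle cell lymphoma, in which SOX11 and CCND1 are driven by the Eµ enhancer of the immunoglobulin heavy chain locus, which is active in B cells. The controls were splenic B cells, selected from 3 wild-type (WT) mice. Their libraries are named WT A, B and C here, since no label ties a column to a mouse. The WT column names read BL6, and the labels give no age, sex or recipient strain and do not say whether the recipients shared a donor. P-values therefore weigh the difference between the groups against the spread between libraries, over these 6 libraries. That spread was fitted as a value per gene common to both groups and moderated across genes. It was not fitted for each group apart, although the P1 spleens varied more than the WT libraries, as given below. Whether other tumours would vary as much is unknown. Selection, genotype and tumour differ together between the groups and cannot be told apart.

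Library totals were 7510327 to 10363396 counts in P1 spleens and 12196413 to 14266132 counts in WT B cells. The label check held: Sox11 was at 82.2, 941 and 648 TMM-normalised CPM (counts scaled to a common library size) in P1 replicates 3, 4 and 5, against at most 0.0642 CPM in WT, and Ccnd1 at 105, 522 and 677 CPM against at most 22.4 CPM. P1 replicate 3 was the lowest P1 library for both drivers. Markers of other cell types were present in the spleens at unequal levels. The summed level of 14 red cell precursor markers was 38470, 226200 and 7098 CPM in P1 replicates 3, 4 and 5 and 127 to 155 CPM in WT. For 12 neutrophil markers it was 8250, 1104 and 2901 CPM against 2.57 to 8.92 CPM, and for 10 T cell markers 634, 274 and 280.5 CPM against 42.2 to 54.6 CPM. The 14 B cell markers summed to 1611, 1088 and 3343 CPM in P1 and to 10340 to 11030 CPM in WT. All 14, 12 and 10 genes of the first 3 lists were called higher in P1, and 13 of the 14 B cell markers lower. The mitochondrial genome took 3.4%, 17.4% and 0.0854% of counts in the 3 P1 libraries and 0.569 to 1.13% in WT. The part of these differences in the results that follow was not tested, beyond the fits that leave a library out. In such bulk samples, fewer cells of a type and less RNA per cell cannot be told apart.

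Taken one by one, few of the 40 nucleolar genes differed between P1 spleen and WT B cells by more than the spread between libraries. Rrp1b was the 1 gene called higher and Gnl3 the 1 called lower (edgeR quasi-likelihood test, Benjamini-Hochberg adjusted p under 0.05, n = 3 per group), which is 5.0% of the 40. Over all 15462 tested genes, 27.9% were called, 16.9% higher and 11.0% lower. At an unadjusted p under 0.05, 9 of the 40 were higher and 2 lower, against 22.4% and 17.7% of all tested genes. DESeq2 called 4 higher (Rrp1b, Nop2, Nolc1 and Bysl) and 2 lower (Gnl3 and Nop10), against 20.1% and 14.3% of all tested genes. The estimates leaned upward all the same. The median log2 fold change of the 40 genes was 0.46, against 0.02 over all tested genes, and 32 of 40 estimates were above 0, against 50.8% of all tested genes. All of the 40 estimates lay between -1.57 and 1.52. For 11 of the 40 the 95% interval lay wholly inside a 2-fold change in either direction, and for 14 it stayed below a 2-fold rise. Over all 15462 tested genes these counts were 2573 and 8293. For the rest of the 40 a 2-fold change was not excluded by these 6 libraries.

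**Figure D1:**
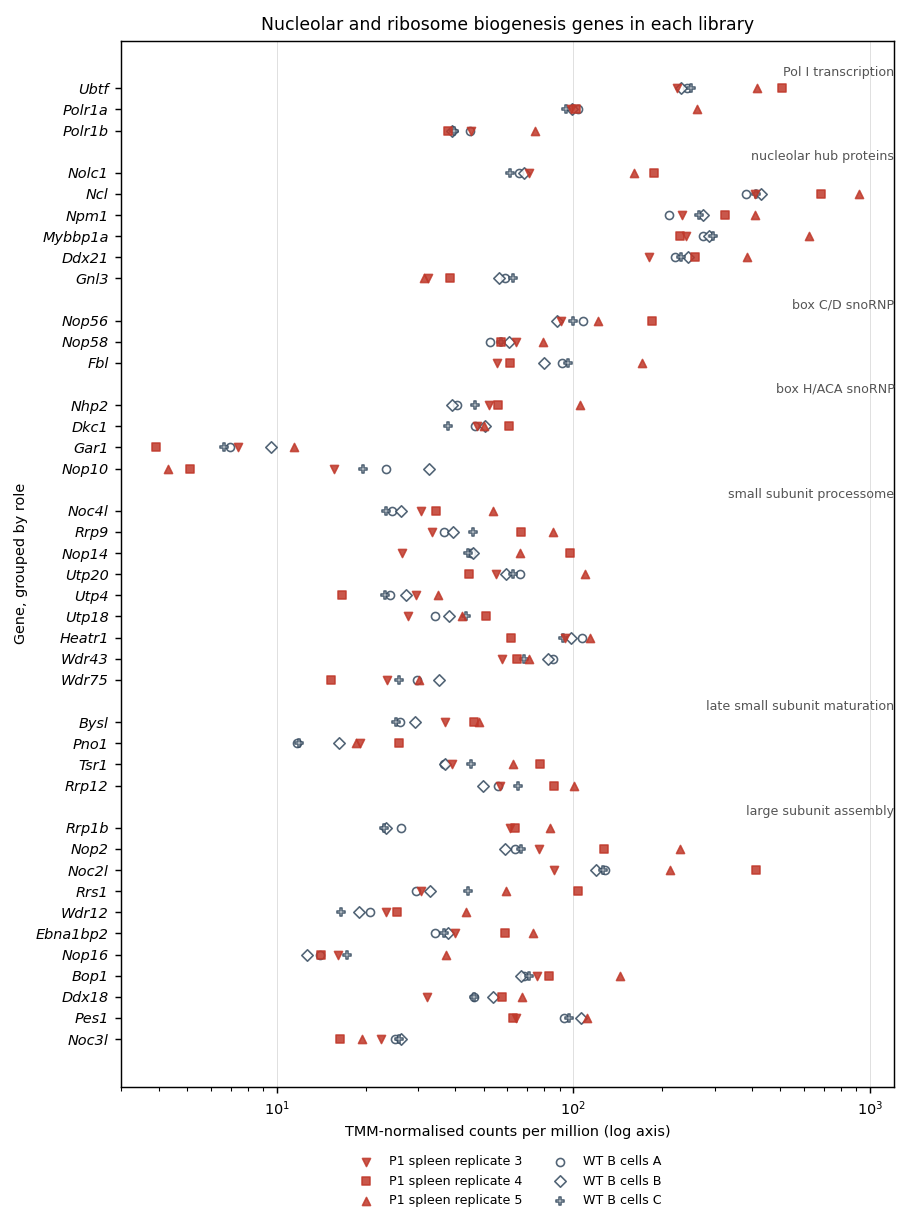
TMM-normalised CPM of the 40 genes in each library, on a log axis, with genes grouped by role. Filled red symbols are the 3 P1 spleens and grey-outlined symbols the 3 WT B cell libraries. The WT symbols lie close together for most genes, and the P1 symbols spread widely, with P1 replicate 5 the highest P1 library for 27 of the 40.

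The P1 spleens differed from each other far more than the WT libraries did. The 40 genes together took 2928, 4516 and 5747 normalised CPM in P1 replicates 3, 4 and 5, and 3103, 3232 and 3229 CPM in WT A, B and C. Replicate 3 thus lay just under the WT libraries, and replicates 4 and 5 above them. The mean was 4397 ± 1413 CPM in P1 and 3188 ± 73.5 CPM in WT (SD, n = 3 each). As a share of all counts, with no composition scaling, the 40 genes took 0.329%, 0.26% and 0.622% in P1 replicates 3, 4 and 5, against 0.366%, 0.353% and 0.35% in WT. On this scale replicate 4 fell below WT, and replicate 5 alone was above. The normalisation factor of replicate 4 was 0.578, against 1.086 to 1.184 for the other 5 libraries, and the red cell and mitochondrial counts of that library were the highest.

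Gene by gene, 38 of 40 (95%) had a wider SD of log2 CPM over the P1 libraries than over the WT libraries, against 87.2% of all tested genes. The median SD was 0.51 in P1 and 0.11 in WT, against 0.59 and 0.21 over all tested genes. P1 replicate 5 was the highest P1 library for 27 of the 40 genes, replicate 4 for 11 and replicate 3 for 2. Over all tested genes those shares were 32.8%, 29.9% and 37.3%. Replicate 3 was the lowest P1 library for 26 of the 40 genes, against 26.2% of all tested genes. In replicate 3, 13 of the 40 genes were above all WT libraries and 16 below all of them, against 40.1% and 42.2% of all genes. In replicate 4 the numbers were 24 above and 13 below, against 41.0% and 46.5% of all genes. In replicate 5 they were 33 above and 3 below, against 41.5% and 43.8%. The medians of the 40 genes relative to the WT mean were -0.06, 0.40 and 0.76 on the log2 scale in replicates 3, 4 and 5, and -0.02, -0.09 and -0.03 over all tested genes. In 10 of the 40 genes all P1 libraries were above all WT libraries, against 22.9% of all tested genes. In 3 all were below, against 24.9%. Together these are 32.5% of the 40, against 47.8% of all tested genes.

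**Figure D2:**
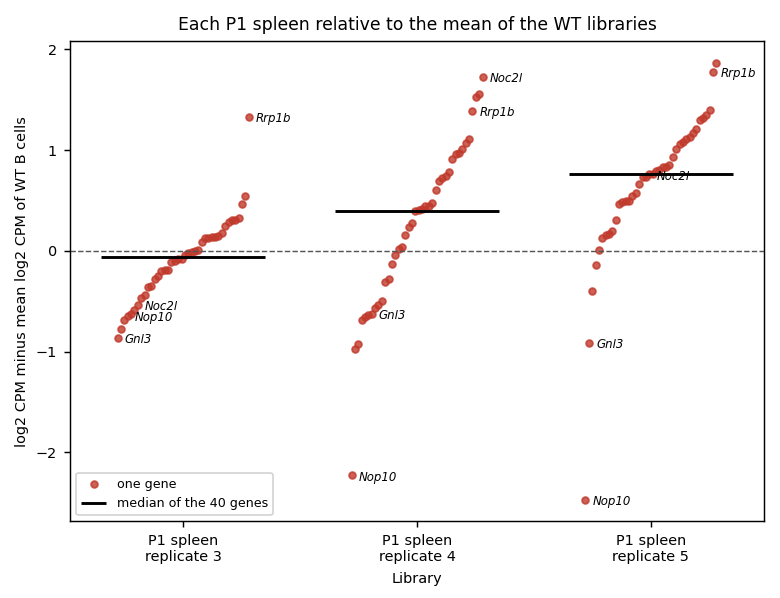
Log2 CPM of each of the 40 genes in each P1 spleen, minus the mean log2 CPM of the WT B cell libraries. Each point is a gene, the bar is the median of the 40, and 4 genes are named. The medians are -0.06, 0.40 and 0.76 in replicates 3, 4 and 5, and Nop10 lies lowest in replicates 4 and 5.

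P1 replicate 3 decided many calls. Without it, 12 of the 40 genes were called higher (edgeR, adjusted p under 0.05) against 17.9% of all genes tested, and 2 lower against 14.2%. The 12 were Rrp1b, Nolc1, Nop2, Noc2l, Ebna1bp2, Ubtf, Rrp9, Rrs1, Bysl, Tsr1, Nop14 and Ncl, and the 2 lower were Nop10 and Gnl3. The median log2 fold change of the 40 was then 0.67, with -0.02 over all genes. Without P1 replicate 5 the median of the 40 was 0.16 and 23 estimates were above 0, with 1 gene called higher against 19.4% of all genes tested, and 2 lower (Gnl3 and Pes1) against 12%. Without P1 replicate 4 it was 0.39, with 1 higher against 17.0% and 1 lower against 9.86%. Each WT library mattered as well. Without WT A, B or C, Rrp1b was the 1 gene called higher, against 10.7%, 10.1% and 12.2% of all genes, and 0 were called lower, against 5.15%, 5.01% and 6.02%. Replicate 3 also had the lowest driver levels and the highest neutrophil and T cell marker levels of the P1 spleens. Replicate 4 had the lowest B cell and the highest red cell precursor marker levels. Whether any of these levels bears on the calls was not tested.

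The choice of scale moved all of these directions together. With libraries scaled to equal B cell markers, the all-gene median log2 fold change shifted by 3.24, and 99.4% of all calls were then higher, against 60.6% with TMM. All 40 nucleolar genes were called higher under that scaling, against 91.6% of all tested genes, and 0 lower, against 0.543%. Relative to the median of all genes, the 40 had a median of 0.41 there and 0.44 with TMM. Plain library totals moved the median of all genes by -0.26, and totals without mitochondrial, globin and immunoglobulin genes by -0.13. With plain totals 0 of the 40 were called by edgeR, against 12.5% of all genes higher and 9.44% lower, with 3 of 40 at an unadjusted p under 0.05, and the median of the 40 relative to all genes was 0.40, with 25 estimates above 0. With the reduced totals 1 was called higher, against 14.6%, and 1 lower, against 10.1%. DESeq2 size factors in edgeR gave the same counts, against 17.1% and 11.0%. Without the low-count filter 2 were called higher, against 10.3%, and 2 lower, against 6.08%. The median of the 40 was then 0.30, or 0.21 relative to all genes, with 29 estimates above 0. Relative to all genes it was 0.185 without P1 replicate 5.

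Factors of the large subunit gave the clearest single result. Rrp1b encodes a nucleolar protein related to the yeast ribosomal RNA processing factor Rrp1. The gene (chromosome 17, 32255074 to 32281839, plus strand, GRCm39) had 61.3, 63.9 and 83.3 CPM in P1 replicates 3, 4 and 5, against 26.2, 23.4 and 23.1 CPM in WT A, B and C. Every P1 library was more than 2-fold above every WT library, and the 3 P1 values lay close together. The estimate on the log2 scale was 1.52 ± 0.24 (SE; edgeR adjusted p = 0.0027), with a 95% interval of 0.97 to 2.07. It passed without each library in turn (adjusted p = 0.0031 to 0.0272) and missed with plain library totals (1.27, adjusted p = 0.0559).

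The promoter is shown because Rrp1b was the gene called higher. It holds none of the motifs searched for below. RefSeq (GRCm38.p6) lists 2 start sites. The 250 bases before the first, at chr17:32035912-32036161 on the plus strand, have a GC content of 60.4% and hold 9 CG pairs, printed in capitals. In the same 250 bases before the start, the median was 16 CG pairs over the windows of these genes and 6 over all promoter windows.
Rrp1b: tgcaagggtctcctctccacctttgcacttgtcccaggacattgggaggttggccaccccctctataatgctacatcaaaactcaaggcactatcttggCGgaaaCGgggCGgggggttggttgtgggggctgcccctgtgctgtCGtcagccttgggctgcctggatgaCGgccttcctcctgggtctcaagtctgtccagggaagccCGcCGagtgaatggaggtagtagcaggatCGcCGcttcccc

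Nop2 encodes the methyltransferase that modifies a cytosine of the large subunit RNA and is also known as the proliferation antigen p120. It had 76.7, 127 and 230.1 CPM in P1 replicates 3, 4 and 5, against 63.5, 58.9 and 66.7 CPM in WT. All P1 libraries were above WT, replicate 3 by little, and the log2 fold change of 1.20 ± 0.39 just missed the threshold (edgeR adjusted p = 0.0505). Noc2l, of a complex that exports early large subunits from the nucleolus in yeast, was the most variable of the 40, with 85.9, 415 and 211 CPM in P1 replicates 3, 4 and 5, against 129, 119 and 127 CPM in WT. Replicate 3 was below WT and replicate 4 more than 3-fold above, so the groups overlapped (0.93 ± 0.50, edgeR adjusted p = 0.202). Of its exonic bases, 14.4% lie opposite exons of Samd11, and the counting strand is not stated. Rrs1, which takes part in loading the 5S RNA, was also highest in replicate 4, at 30.7, 104 and 59.6 CPM in P1, against 29.6, 32.9 and 44.3 CPM in WT.

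Pes1, Bop1 and Wdr12 form the PeBoW complex of large subunit maturation, and their estimates did not all point the same way. Pes1 was at 64.0, 62.5 and 111 CPM in P1 replicates 3, 4 and 5, against 93.3, 106 and 96.8 CPM in WT, with a log2 fold change of -0.32 ± 0.29 (edgeR adjusted p = 0.45). Bop1 was at 75.3, 83.1 and 144 CPM in P1, against 68.5, 66.7 and 71.2 CPM in WT (0.55 ± 0.30, edgeR adjusted p = 0.203). Wdr12 was at 23.5, 25.5 and 43.4 CPM in P1, against 20.7, 18.9 and 16.6 CPM in WT (0.72 ± 0.31, edgeR adjusted p = 0.123). All P1 libraries were above WT for Bop1 and Wdr12, and 2 of 3 were below WT for Pes1. Noc3l, whose yeast counterpart pairs with Noc2, was below WT in every P1 library at 22.4, 16.4 and 19.5 CPM, against 25.1, 26.3 and 25.8 CPM (-0.40 ± 0.25, edgeR adjusted p = 0.275). Ebna1bp2, a nucleolar factor of the large subunit, had 39.9, 59.0 and 73.2 CPM in P1, against 34.3, 38.0 and 36.7 CPM in WT, and stood above WT in every P1 library (0.66 ± 0.28, edgeR adjusted p = 0.111). Nop16 (0.62 ± 0.41) and the helicase Ddx18 (0.10 ± 0.30) overlapped between groups. Of the 11 large subunit factors, edgeR called 1 higher and 0 lower, against 16.9% and 11.0% of all tested genes. At an unadjusted p under 0.05, 4 were higher and 0 lower, against 22.4% and 17.7%. DESeq2 called 2 higher and 0 lower, against 20.1% and 14.3%. These counts are near or below the shares of all genes or too small to read. Their median log2 fold change was 0.66.

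Among the proteins that act across the nucleolus, Gnl3 was lower in P1 spleen. Gnl3 encodes nucleostemin, a GTP-binding nucleolar protein abundant in stem and tumour cells. The gene (chromosome 14, 30734390 to 30741109, minus strand, GRCm39) had 32.5, 38.4 and 31.4 CPM in P1 replicates 3, 4 and 5, against 58.9, 56.3 and 62.7 CPM in WT A, B and C. Its groups were apart and its P1 libraries were among the least spread of the 40. The log2 fold change was -0.80 ± 0.22 (edgeR adjusted p = 0.0292), with a 95% interval of -1.31 to -0.29. The call was lost without WT A, B or C (edgeR adjusted p = 0.105, 0.095 and 0.113) and with plain library totals (0.0734). It turned to 2.56 under B-cell-centred scaling, still below the median of all genes there, 3.26.

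The Gnl3 promoter is shown beside that of Rrp1b for contrast. The 250 bases before its RefSeq start (GRCm38.p6, chr14:31019132-31019381, minus strand) have a GC content of 81.6% and hold 36 CG pairs in capitals, and none of the motifs searched for.
Gnl3: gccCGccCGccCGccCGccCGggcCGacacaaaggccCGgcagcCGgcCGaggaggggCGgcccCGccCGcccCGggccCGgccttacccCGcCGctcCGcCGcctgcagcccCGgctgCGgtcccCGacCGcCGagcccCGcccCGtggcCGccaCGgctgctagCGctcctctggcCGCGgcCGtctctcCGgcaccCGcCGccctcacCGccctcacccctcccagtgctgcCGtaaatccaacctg

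Nucleolin (Ncl) and nucleophosmin (Npm1) are the main phosphoproteins of the nucleolus. Ncl had 410.4, 684 and 923 CPM in P1 replicates 3, 4 and 5, against 382, 431 and 415 CPM in WT. Replicate 3 lay within the WT range and the other P1 spleens above it (0.72 ± 0.36, edgeR adjusted p = 0.176). Npm1 had 234, 326 and 411 CPM in P1, against 210.1, 273 and 266 CPM in WT (0.37 ± 0.30, edgeR adjusted p = 0.395). Per kilobase of exon, Npm1 had the highest level of the 40 genes, at 121 CPM in P1 and 93.7 CPM in WT. The mouse genome holds processed copies of Npm1, and how reads that map to several places were counted is not given in the sources used here. Nolc1, a chaperone of snoRNPs, showed the largest estimate of the 6 hub genes, with 71.1, 188 and 160.3 CPM in P1, against 65.9, 68.1 and 61.1 CPM in WT. All P1 libraries were above WT (1.10 ± 0.36, edgeR adjusted p = 0.0523). The helicase Ddx21 and the Myb-binding protein Mybbp1a, which sits at ribosomal RNA genes, overlapped between groups (0.24 and 0.35). Mybbp1a had 241, 230.0 and 624 CPM in P1 replicates 3, 4 and 5, against 273, 287 and 297 CPM in WT, so replicate 5 stood alone. In this group edgeR called 0 higher and 1 lower, against 16.9% and 11.0% of all tested genes. At an unadjusted p under 0.05, 1 was higher and 1 lower, against 22.4% and 17.7%. DESeq2 called 1 higher and 1 lower, against 20.1% and 14.3%.

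RNA polymerase I is represented by its 2 largest subunits and the factor UBF. Ubtf, which encodes UBF, had 224, 507 and 416 CPM in P1 replicates 3, 4 and 5, against 242, 231 and 249.2 CPM in WT. Replicate 3 was just below WT and the other 2 well above (0.67 ± 0.34, edgeR adjusted p = 0.185, 95% interval -0.12 to 1.45). Polr1a, the largest subunit, had 98.3, 102 and 262.5 CPM in P1, against 103, 99.4 and 94.6 CPM in WT (0.64 ± 0.40, edgeR adjusted p = 0.27). Polr1b, the second largest, had 45.4, 37.7 and 74.4 CPM in P1, against 45.0, 39.1 and 39.8 CPM in WT (0.35 ± 0.30, edgeR adjusted p = 0.42). For both subunits replicate 5 alone was well above WT. None of these 3 genes was called by edgeR or DESeq2, and 0 had an unadjusted p under 0.05. Of all tested genes, edgeR called 16.9% higher and 11.0% lower, and DESeq2 20.1% and 14.3%. Unadjusted, the shares were 22.4% and 17.7%.

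**Figure D3:**
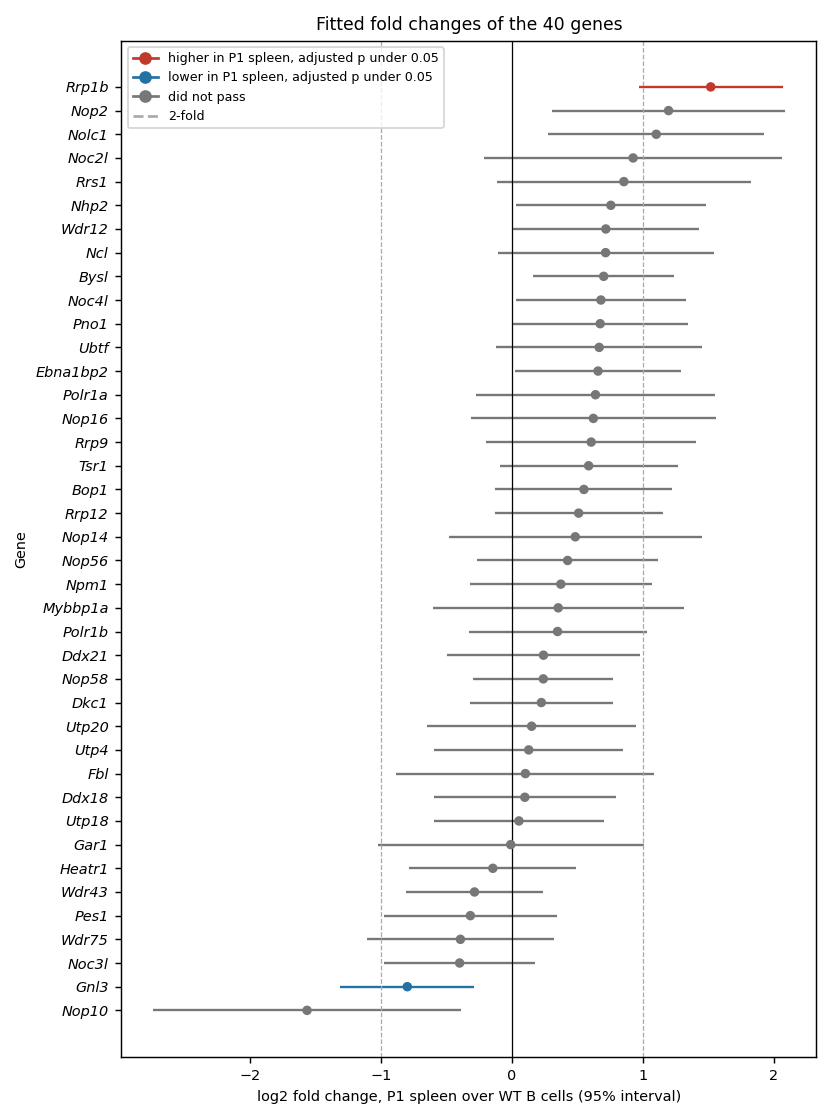
Fitted log2 fold changes of P1 spleen over WT B cells for the 40 genes, ordered by size, with 95% intervals. Dashed lines mark 2-fold, and colour marks the genes with an adjusted p under 0.05. Rrp1b is called higher at 1.52 and Gnl3 lower at -0.80, and 29 of the 40 intervals include 0.

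The snoRNPs guide chemical modification of ribosomal RNA. Of the box C/D proteins, which direct methylation, Nop56 had 91.2, 185 and 121 CPM in P1 replicates 3, 4 and 5, against 108, 88.4 and 99.6 CPM in WT (0.43 ± 0.30, edgeR adjusted p = 0.332). The methyltransferase Fbl had 55.2, 61.3 and 170.2 CPM in P1, against 91.6, 79.8 and 95.8 CPM in WT. Replicates 3 and 4 were thus below WT and replicate 5 above (0.10 ± 0.43, edgeR adjusted p = 0.883). Nop58 overlapped between groups, with a 95% interval of -0.30 to 0.78. None of these 3 was called by either tool or had an unadjusted p under 0.05. The shares of all tested genes higher and lower were 16.9% and 11.0% by edgeR and 20.1% and 14.3% by DESeq2. Unadjusted, they were 22.4% and 17.7%.

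The box H/ACA proteins, which direct pseudouridylation and also bind telomerase RNA, form 1 complex, and their estimates ran from -1.57 to 0.76. Nop10 (chromosome 2, 112092271 to 112093614), the smallest subunit, had 15.7, 5.09 and 4.29 CPM in P1 replicates 3, 4 and 5, against 23.3, 32.6 and 19.5 CPM in WT. Its raw counts were 182, 22 and 37 in P1 and 385, 507 and 258 in WT. All P1 libraries were below WT, replicates 4 and 5 by more than 3-fold. The log2 fold change was -1.57 ± 0.52 with a 95% interval of -2.74 to -0.39, and it just missed the threshold (edgeR adjusted p = 0.0535). It passed without P1 replicate 3 (-2.44, edgeR adjusted p = 0.00369), without a low-count filter (0.0144) and by DESeq2 (0.0141), and over the fits that leave out a library it ran up to 0.171. Nhp2 had 52.0, 56 and 105 CPM in P1, against 40.5, 39.2 and 46.7 CPM in WT. All P1 libraries were above WT (0.76 ± 0.32, edgeR adjusted p = 0.112). Dkc1, the pseudouridine synthase itself, overlapped between groups (0.22 ± 0.24, edgeR adjusted p = 0.525). Gar1, the least counted of these genes, had 7.40, 3.93 and 11.5 CPM in P1, against 6.97, 9.57 and 6.65 CPM in WT (-0.01 ± 0.44, edgeR adjusted p = 0.99). Its interval of -1.02 to 1.006 leaves a 2-fold change possible either way. Of the 4 genes 0 were called by edgeR, against 16.9% higher and 11.0% lower of all tested genes. At an unadjusted p under 0.05, 1 was higher and 1 lower, against 22.4% and 17.7%. DESeq2 called 0 higher and 1 lower, against 20.1% and 14.3%.

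The small subunit processome is the large particle in which the early small subunit is cut from the precursor. Its 9 genes gave a median log2 fold change of 0.13. None of the 9 was called by edgeR or DESeq2. The shares of all tested genes higher and lower were 16.9% and 11.0% by edgeR and 20.1% and 14.3% by DESeq2. At an unadjusted p under 0.05, 1 gene, Noc4l, was higher and 0 lower, against 22.4% and 17.7%. Noc4l had 30.7, 34.5 and 53.7 CPM in P1 replicates 3, 4 and 5, against 24.5, 26.3 and 23.4 CPM in WT (0.68 ± 0.28, edgeR adjusted p = 0.11). Of the 9, Nop14 varied most between the spleens, with 26.4, 97.9 and 66.0 CPM in P1, against 45.4, 46.0 and 44.1 CPM in WT. Replicate 3 was below all WT libraries and the other 2 above them (0.48 ± 0.42, edgeR adjusted p = 0.431). Rrp9, the U3 snoRNA-binding protein, was likewise below WT in replicate 3 and above it in the other spleens, at 33.5, 66.9 and 85.8 CPM in P1, against 36.7, 39.4 and 46.1 CPM in WT.

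The subcomplex that joins the processome to polymerase I transcription did not lie above WT in replicates 3 and 4, apart from Utp4 in replicate 3. Heatr1 had 93.6, 61.6 and 114 CPM in P1 replicates 3, 4 and 5, against 107, 98.6 and 92.6 CPM in WT (-0.15 ± 0.28, edgeR adjusted p = 0.737). Wdr75 had 23.6, 15.3 and 30.2 CPM in P1, against 29.7, 35.4 and 25.9 CPM in WT (-0.39 ± 0.31, edgeR adjusted p = 0.384). Wdr43 had 57.8, 64.6 and 71.2 CPM in P1, against 85.3, 82.3 and 68.3 CPM in WT. It was the most even of the 40 over the P1 spleens, with an SD of log2 CPM of 0.15, against 1.14 for Noc2l at the other end. Its log2 fold change was -0.29 ± 0.23 (edgeR adjusted p = 0.39), and its 95% interval of -0.81 to 0.24 lay inside 2-fold. Utp4, of the same subcomplex, overlapped between groups (0.13 ± 0.32), as did Utp18 (0.05 ± 0.28) and Utp20 (0.15 ± 0.35).

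The late factors of the small subunit all had positive estimates. Bysl, the bystin gene, had 37.1, 46.3 and 48.02 CPM in P1 replicates 3, 4 and 5, against 26.1, 29.3 and 25.3 CPM in WT. All P1 libraries were above WT (0.70 ± 0.24, edgeR adjusted p = 0.0578, and 0.0253 by DESeq2). Of its exonic bases 9.37% lie opposite exons of its neighbour Ccnd3. Pno1, which holds the end of the small subunit RNA before its last cut, had 19.2, 25.9 and 18.6 CPM in P1, against 11.7, 16.2 and 11.9 CPM in WT (0.67 ± 0.29, edgeR adjusted p = 0.123). Rrp12 had 56.8, 86.1 and 101 CPM in P1, against 55.7, 49.8 and 65.4 CPM in WT (0.51 ± 0.28, edgeR adjusted p = 0.212). Tsr1 had 39.0, 77.1 and 62.8 CPM in P1, against 36.6, 36.9 and 45.4 CPM in WT, and shares 32.3% of its exonic bases with Srr on the other strand. Of these 4 genes 0 were called by edgeR, against 16.9% higher and 11.0% lower of all tested genes. At an unadjusted p under 0.05, 2 were higher and 0 lower, against 22.4% and 17.7%. DESeq2 called 1 higher and 0 lower, against 20.1% and 14.3%.

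Few genes were called in a wider list of 143 other ribosome biogenesis genes, of which 135 were tested. Of these, 3 were called higher and 3 lower, against 16.9% and 11.0% of all tested genes. At an unadjusted p under 0.05 there were 12 and 9, against 22.4% and 17.7%, and by DESeq2 7 and 7, against 20.1% and 14.3%. Their median log2 fold change was 0.02, the same as over all tested genes and lower than the 0.46 of the 40. Riok3, a kinase of the RIO family linked to small subunit maturation, had 222, 645 and 170.5 CPM in P1 replicates 3, 4 and 5, against 81.9, 84.6 and 88.4 CPM in WT (2.03 ± 0.50, edgeR adjusted p = 0.0175). It was highest in replicate 4, and above WT in all P1 libraries. The red cell precursor markers summed to 38470, 226200 and 7098 CPM in P1 replicates 3, 4 and 5, and a link with Riok3 was not tested. Ppan, a large subunit factor, had 55.5, 155 and 143 CPM in P1, against 54.7, 43.0 and 48.1 CPM in WT (1.28 ± 0.39, edgeR adjusted p = 0.0396). Naf1, which assembles H/ACA particles, had 7.91, 33.8 and 27.5 CPM in P1, against 6.97, 7.19 and 8.16 CPM in WT (1.62 ± 0.50, edgeR adjusted p = 0.0432). In replicate 3 both Ppan and Naf1 were near the WT level.

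All 3 genes of the wider list called lower by edgeR were host transcripts of snoRNAs. These are long non-coding RNAs whose introns carry the guide RNAs of the snoRNPs. Of 8 tested hosts, 3 were called lower and 0 higher, also by DESeq2 and at an unadjusted p under 0.05. The shares of all tested genes lower were 11.0% by edgeR, 14.3% by DESeq2 and 17.7% unadjusted, and 8 hosts are too few to compare with them. Of the 7 genes of the wider list lower by DESeq2, 2 were processome and 2 large subunit genes. Of the 9 lower at an unadjusted p under 0.05, 2 were processome and 4 large subunit genes. The median log2 fold change of the hosts was -0.61. Snhg12 had 14.2, 11.6 and 23.7 CPM in P1 replicates 3, 4 and 5, against 37.6, 32.9 and 39.8 CPM in WT (-1.15 ± 0.32, edgeR adjusted p = 0.0287). Snhg8 had 10.3, 18.1 and 13.7 CPM in P1, against 31.7, 27.2 and 28.2 CPM in WT (-1.06 ± 0.29, edgeR adjusted p = 0.0283). Snhg1 had 26.9, 25.0 and 29.0 CPM in P1, against 43.2, 42.7 and 48.1 CPM in WT (-0.73 ± 0.23, edgeR adjusted p = 0.0432). Gas5, the most counted host, overlapped between groups (-0.22 ± 0.23, edgeR adjusted p = 0.51). Each of the 6 calls in the wider list was lost without WT A, B or C, with adjusted p from 0.0621 to 0.161.

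**Figure D4:**
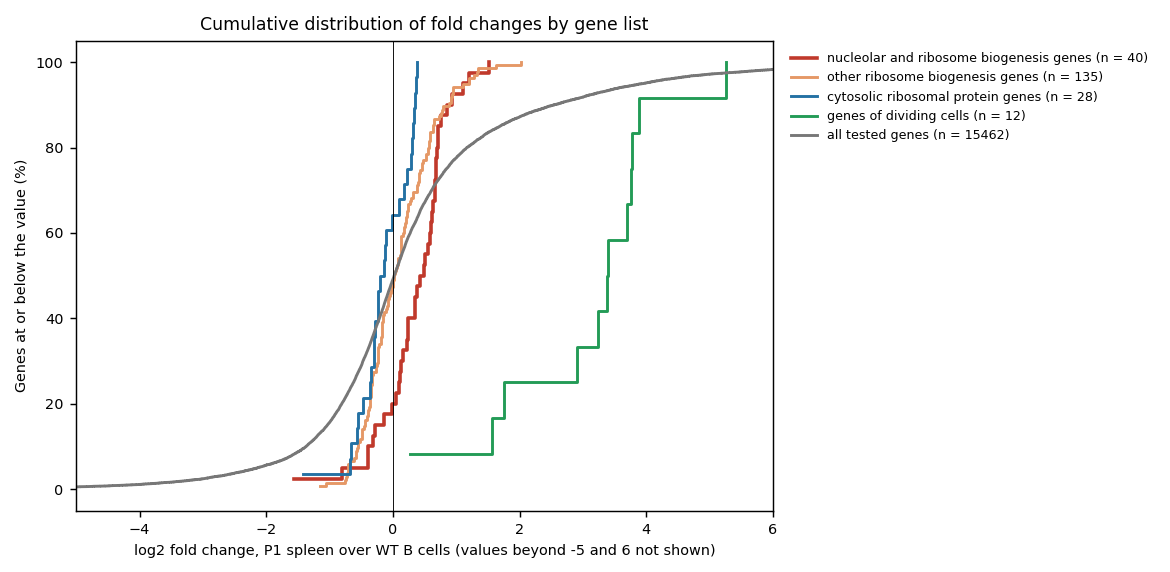
Cumulative distribution of log2 fold changes of P1 spleen over WT B cells for the 40 genes, 135 other ribosome biogenesis genes, 28 cytosolic ribosomal protein genes, 12 genes of dividing cells and all tested genes. The curve of the 40 genes crosses its middle at 0.46, that of the genes of dividing cells at 3.39.

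Estimates for the 40 genes were small beside those of genes of dividing cells. Of 12 such genes, 11 were called higher, against 16.9% of all tested genes, with a median log2 fold change of 3.39, and Mki67 was at 1884, 3824 and 1136 CPM in P1 replicates 3, 4 and 5, against 52.4, 77.8 and 49.4 CPM in WT. The 28 cytosolic ribosomal protein genes had a median of -0.17, with 0 called higher and 1 lower (Rps16), also by DESeq2. The shares of all tested genes were 16.9% and 11.0% by edgeR and 20.1% and 14.3% by DESeq2. Their median SD of log2 CPM over the P1 spleens was 0.80, against 0.59 for all tested genes. The 28 genes summed to 10790, 25220 and 28520 CPM in the P1 libraries, against 19620 to 25680 CPM in WT, with replicate 3 lowest. Myc had 113.5, 313 and 212 CPM in P1, against 252.5, 359 and 324 CPM in WT (-0.55 ± 0.39, edgeR adjusted p = 0.325), and replicate 3 was lowest there too. Of 10 tested genes of the MYC network, edgeR called 3 higher and 2 lower, against 16.9% and 11.0% of all tested genes. Named after their values were seen, the higher genes were Mxd1 at 3.73 ± 0.41, Mxd3 at 3.38 ± 0.37 and Mxi1 at 3.09 ± 0.555 (edgeR adjusted p = 0.00078, 0.000788 and 0.00454). The lower genes were Mxd4 at -0.97 ± 0.23 and Mga at -1.17 ± 0.265 (edgeR adjusted p = 0.0154 and 0.0123). Mxd1, Mxd3, Mxi1 and Mxd4, of the MXD family of MYC antagonists, thus diverged, with Mxd4 alone called lower. With 3 spleens the orders of the replicates are given as values and were not tested.

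Some sequence features that the choice of the genes did not use differed in frequency between them and all genes. A search of RefSeq promoters (GRCm38.p6, 250 bases before to 50 after each start) covered 35 of the 40 genes and 27025 genes in all. The 27025 genes were not filtered by expression, whereas the 40 all passed the low-count filter. The motif shares were not compared with those of the tested genes. CACGTG, the E-box letters that MYC and other factors can bind and that read the same on both strands, occurred in 9 of 35 (25.7%), against 8.09% of all genes. CCGGAAG, the ETS core on either strand, occurred in 11 of 35 (31.4%) against 9.93%. TTTGGCGC or TTTCCCGC, the E2F letters on either strand, occurred in 3 of 35 (8.57%) against 1.8%. TATAAA on either strand occurred in 2 of 35 (5.71%) against 15.7%. No motif is contained in another. A match is a description of letters and not a binding site, and the windows of these genes also hold more CG pairs than the median window, as given above.

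The stretches of 30 bases around the 9 E-boxes are shown in transcript direction with the E-box in capitals, because they show how close it lies to the start. In 7 of the 9 its first base lay after the start, 3 to 41 bases in, counting the first transcribed base as 1. In Nop2 and Utp18 it lay 60 and 20 bases before the start.
Nop2: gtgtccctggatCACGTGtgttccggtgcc
Utp4: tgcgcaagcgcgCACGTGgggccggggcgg
Utp20: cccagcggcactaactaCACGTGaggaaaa
Pes1: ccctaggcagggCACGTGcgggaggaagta
Pno1: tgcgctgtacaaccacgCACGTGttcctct
Mybbp1a: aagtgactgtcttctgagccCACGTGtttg
Tsr1: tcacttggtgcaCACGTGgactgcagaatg
Utp18: gcgagcgccggtCACGTGgcttgcggcggc
Wdr43: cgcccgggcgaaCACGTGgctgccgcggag
Of these 9 genes none was called by edgeR, against 27.9% of all tested genes, too few genes to compare. DESeq2 called Nop2 higher (adjusted p = 0.02), against 20.1% of all tested genes. The edgeR estimates of the 9 ran from Pes1 at -0.32 to Nop2 at 1.20. The windows lie, in the order printed, at chr6:125131811-125131840, chr8:106893643-106893672, chr10:88826765-88826794, chr11:3963965-3963994, chr11:17211540-17211569, chr11:72441347-72441376, chr11:74898092-74898121, chr11:93885769-93885798, chr17:71616220-71616249 in GRCm38.p6. Those of Utp20, Pno1 and Utp18 read the minus strand and the others the plus strand.

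Several of the genes also carry snoRNA genes inside them. By the table's own GRCm39 coordinates, 7 of the 40 (17.5%) hold at least 1 annotated snoRNA gene on the same strand, against 1.39% of all tested genes. They are Ncl, Gnl3, Nop56, Nop58, Dkc1, Wdr43 and Tsr1, and hold 20 snoRNA genes in all. No such snoRNA gene had more than 10 counts in any library, too few for a comparison.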

How the data were processed

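RNA (50 ng per library) was made into libraries with a directional NEBNext Ultra kit, per the labels' protocols. The deposited values are raw counts per gene. The submitters' processing notes name Trim Galore, HISAT2 and featureCounts, and the build GRCm39. Versions, options, RNA selection and counting strand are not given in the sources used here. The Length column of the deposited table, another unit, is the summed exon length in bases, which includes exons of rare isoforms and so lowers a level per kilobase.

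Genes were filtered with filterByExpr by group, scaled by TMM and tested with the edgeR 4.0.16 quasi-likelihood F-test (R 4.3.3, robust dispersion, no covariates), with Benjamini-Hochberg adjustment over all 15462 tested genes at 0.05. Symbols came from gene IDs (51948 of 56884). CPM are scaled to TMM-adjusted totals; log2 CPM use a prior count of 2. The standard error is the log2 fold change divided by the square root of F, and 95% intervals use the fit's degrees of freedom. Depths were 7510327 to 14266132 counts. Counting error was not separated from the spread between libraries gene by gene, and it weighs most in the least counted genes. The fit was tested on simulated counts with the same dispersion in both groups. That setting does not cover the wider spread of the P1 spleens. Pairs of libraries were compared for repeats by chi-square: per degree of freedom it came to 124 to 280 among P1 spleens and 19.5 to 20.9 among WT, far above sampling noise. Alternatives were other scalings, no filter, DESeq2 1.42.0 and each library left out.

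The members, lists and the rule for naming genes were chosen with earlier results of these data known. Full values were given for the member of each role with the smallest adjusted p, the one with the highest level per kilobase, each with a negative estimate, and the most and least variable. Of the wider list, 138 of 143 entries matched a gene, 1 through a synonym. The lists of macrophage (0 of 10 called), plasma cell (1 of 5 higher) and stromal markers (5 of 6 higher, 1 lower) were also run; macrophage genes numbered 3 higher at an unadjusted p under 0.05 and 2 by DESeq2.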

Additional observations from a re-analysis of the deposited data

How the results depend on the processing

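Calls and estimates were recomputed under 12 alternatives, and the summed level and the spread between P1 spleens under 10, since neither was recomputed without the filter or by DESeq2. The number of all genes called was 4320, 14241 under B-cell-centred scaling and 2459 to 5221 over the fits that leave out a library. Members called higher numbered 1, against 0 with library totals, 2 without a filter, 4 by DESeq2, 40 under B-cell-centred scaling and 1 to 12 with a library left out. Members called lower numbered 1, against 0 under B-cell-centred scaling and 0 with library totals, 2 without a filter and by DESeq2, and 0 to 2 with a library left out. Other pathway genes called higher numbered 3, against 1 with library totals, 1 with totals without mitochondrial, globin and immunoglobulin genes, 7 by DESeq2, 135 under B-cell-centred scaling and 0 to 19 with a library left out. Those called lower numbered 3, against 1 with library totals, 7 by DESeq2, 0 under B-cell-centred scaling and 0 to 11 with a library left out. B-cell-centred scaling put the members' median log2 fold change at 3.67, the log2 ratio of their summed level at 3.75 (0.46 with TMM) and the median SD over the P1 spleens at 0.87 (0.51 with TMM). It turned the 8 negative estimates: Gnl3 2.56, Gar1 2.97, Nop10 1.596, Wdr43 3.01, Wdr75 2.70, Heatr1 2.97, Pes1 2.83 and Noc3l 2.82, each below the 3.26 median of all genes there. By that scaling's construction all genes shift together; for the other changes the cause was not tested. No paired analysis was possible because the labels give no pairing between P1 and WT mice. Gar1, at 17 to 149 counts a library, is limited most by depth.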
